A study of Arabidopsis thaliana with 8 samples.

Results

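The response of wild-type Arabidopsis thaliana roots to iron deficiency was taken from 4 of the 8 arrays of the study, chosen by their titles. The 2 WT −Fe arrays and the 2 WT +Fe arrays hold total root RNA of wild-type plants. All plants grew for 14 days on diluted Gamborg's B5 medium and then for 3 days on a defined agar medium. In the −Fe medium the iron chelator ferrozine was present at 300 µM and no iron was added, and the +Fe medium held 50 µM Fe(III)-EDTA and no ferrozine, so the groups differ in chelator as well as in iron. The other 4 arrays hold roots of the uri mutant under the same media (uri −Fe and uri +Fe, 2 arrays each), a line changed in the basic helix-loop-helix (bHLH) factor gene URI. They entered the statistical model and the comparison of genotypes at the end. Each group had 2 biological replicates per the study's design text, which gives no number of plants behind a sample. The titles open with serial numbers that form one block for the −Fe arrays and another for the +Fe arrays. The labels do not say what the numbers mark, and whatever they mark cannot be told apart from iron supply.

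Iron is abundant in soil but poorly soluble. Arabidopsis roots short of iron acidify the soil, secrete coumarins, reduce ferric iron at the surface and take up ferrous iron through the transporter IRT1. A cascade of bHLH factors switches these steps on, and other adjustments follow. Metals that enter through IRT1 beside iron are stored in the vacuole, nicotianamine and peptide transporters move iron inside the plant, ferritins and vacuolar iron importers are turned down, and iron enzymes can be replaced by enzymes with another metal. The genes beyond uptake, its regulators, vacuolar metal transport and coumarins are the main subject here.

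The values are probe-set intensities from which log2 was taken, so a difference of 1 is a 2-fold change. Differences are WT −Fe minus WT +Fe, with moderated standard errors (SE) and adjusted p-values from limma over 22746 probe sets, and a gene is called higher or lower at an adjusted p under 0.05. Of 21019 genes with a probe set of their own, 746 (3.55%) were called higher and 467 (2.22%) lower in WT −Fe roots. Most changes were small, since 979 of the 1213 called genes (5.77% of all genes were called), or 80.7%, changed less than 2-fold. At least 2-fold higher were 180 genes (0.856%) and at least 2-fold lower 54 (0.257%). At least 4-fold changes were 42 rises (0.2%) against 1 fall (0.00476%), that of the iron superoxide dismutase gene FSD1. The median difference over all genes was −0.03, with quartiles of −0.16 and 0.10.

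**Figure D1:**
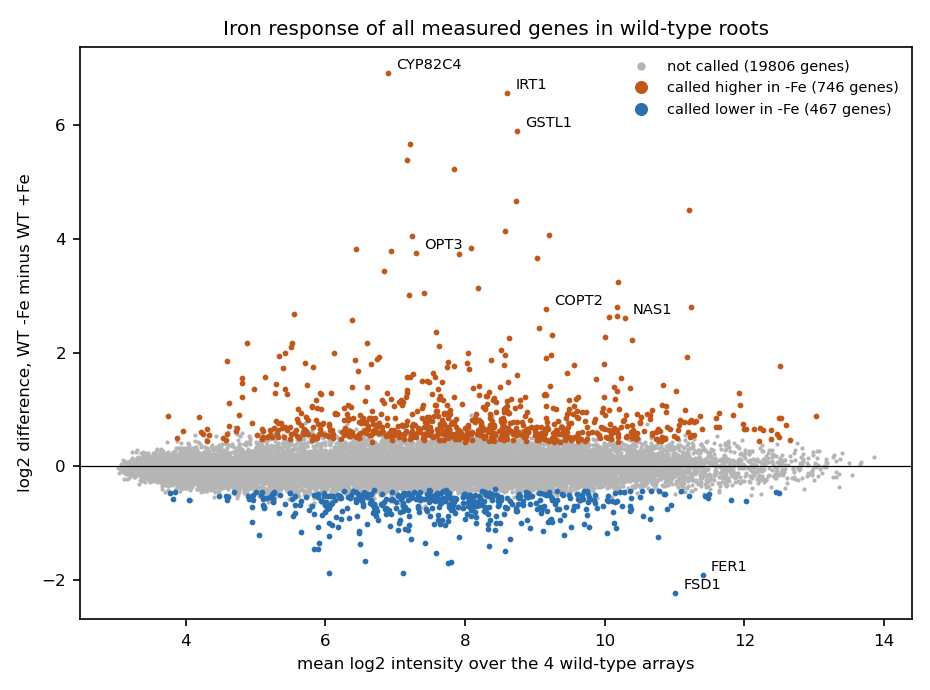
The horizontal axis is a gene's mean log2 intensity over the 4 wild-type arrays and the vertical axis its log2 difference, WT −Fe minus WT +Fe, with 1 point for each of 21019 genes. The 746 rises (orange) reach 6.92 for CYP82C4, whose WT +Fe mean lies under the lower quartile of those arrays, whereas the 467 falls (blue) end at −2.24 for FSD1.

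The 4 wild-type arrays had median linear intensities from 123.87 to 127.20. Replicates correlated across probe sets with r of 0.998 in WT −Fe roots and 0.995 in WT +Fe roots. With so few arrays the counts change when any is left out. Omitting a wild-type array leaves 1 in its group, so fewer calls may come from lower precision alone. The number of called probe sets was 1285 (5.65%), with 798 higher (3.51%) and 487 lower (2.14%), and it was 494, 435, 647 and 821 without WT −Fe replicate 1, WT −Fe replicate 2, WT +Fe replicate 1 and WT +Fe replicate 2. Groups without overlap are common with so few arrays, at 51% of all genes. The 4 counts given in this order for gene groups below are the same 4 omissions. Counts of calls in gene groups are to be read against 3.55% of all genes called higher and 2.22% called lower.

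The labelled tissue and treatment were checked on marker genes. None of 20 measured markers of root cells was called, and their median difference was 0.07. They include the Casparian strip gene CASP1 at 0.11, the endodermis factor gene SCR at 0.11 and the root hair wall gene COBL9 at 0.07, and all were above the lower quartile of the arrays. The 6 flower markers, LFY and AP1 among them, had means below that quartile in both groups. IRT1 (AT4G19690), the main root iron importer, had log2 intensities of 11.85 and 11.93 in WT −Fe roots, against 5.06 and 5.58 in WT +Fe roots. For bHLH39 (AT3G56980), a partner of the master regulator FIT, the values were 10.07 and 10.03 in WT −Fe roots, against 4.40 and 4.36 in WT +Fe roots. These were rises of 6.57 ± 0.193 and 5.67 ± 0.117 (adjusted p = 7.66e-10 and 4.53e-11), and the size of the second is uncertain because the WT +Fe mean of bHLH39 lay under the lower quartile. F6'H1, which commits phenylpropanoids to coumarins, rose by 2.81 ± 0.128 with 12.67 and 12.62 in WT −Fe roots, against 9.80 and 9.88 in WT +Fe roots. Together the lists of uptake, regulator, vacuolar and coumarin genes hold 32 measured genes, of which 19 were at least 2-fold higher. FIT, FRO2 and bHLH38 are not analysed here. Leaving these lists aside, 161 other genes were at least 2-fold higher.

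The largest rise outside those lists was that of GSTL1 (AT5G02780), which encodes a lambda-class glutathione transferase. Its log2 intensity was 11.72 and 11.67 in WT −Fe roots, against 5.87 and 5.73 in WT +Fe roots. The rise of 5.90 ± 0.184 (59.6-fold, adjusted p = 8.63e-10) was far larger than the gap between replicates. Most other members of the family were not called. Of 42 measured glutathione transferase genes 3 (7.14%) rose, against 3.55% of all genes, and none fell. The other rises were GSTU24 at 1.38 and GSTU9 at 0.93, and the family's median was 0.10.

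Several of the strongest rises belong to genes with no symbol in the annotation. AT3G61930, an unknown protein, had 11.05 and 11.07 in WT −Fe roots, against 5.94 and 6.83 in WT +Fe roots, and its WT +Fe replicates differed more than those of any other gene among the 15 largest rises. AT3G07720, a kelch-repeat protein, had 13.41 and 13.52 in WT −Fe roots, against 8.88 and 9.04 in WT +Fe roots, which puts it among the brightest probe sets of the −Fe arrays. AT5G38820, annotated as an amino acid transporter, had 10.52 and 10.77 in WT −Fe roots, against 6.44 and 6.57 in WT +Fe roots. The groups of all 3 genes were far apart, with rises of 4.68 ± 0.259, 4.51 ± 0.138 and 4.15 ± 0.131. AT5G05250 rose by 3.83 ± 0.168, and AT3G56360, whose product the annotation calls similar to it, by 1.42. AT1G73120 rose by 3.73 ± 0.177, AT4G19370 by 3.43 ± 0.143 and AT5G62420, an aldo/keto reductase gene, by 3.01 ± 0.146. Of the 180 genes that were at least 2-fold higher, 74 (41.1%) had no symbol in the gene table or the lists used here. Over all genes the share was 57.6%. The lists were chosen with earlier results known, which can lower the first share.

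**Figure D2:**
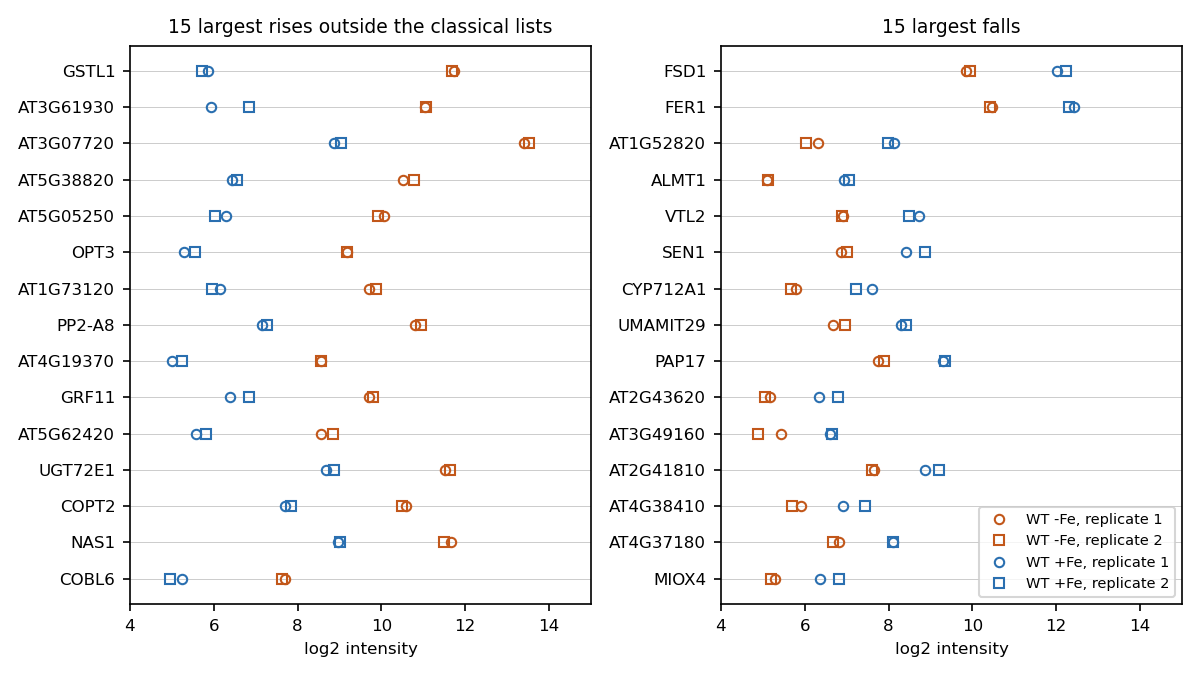
Log2 intensity of the 15 largest rises outside the lists of uptake, regulator, vacuolar and coumarin genes (left) and of the 15 largest falls (right) on each wild-type array, with WT −Fe in orange, WT +Fe in blue, circles for replicate 1 and squares for replicate 2. GSTL1 has the widest gap, with 11.72 and 11.67 in WT −Fe against 5.87 and 5.73 in WT +Fe. In all 30 rows the groups lie apart because only such genes were chosen.

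Among genes that move iron inside the plant, 7 of 15 measured rose, 1 fell and 7 were not called. OPT3 (AT4G16370), a phloem transporter needed for iron signalling between shoot and root, had 9.17 and 9.17 in WT −Fe roots, against 5.29 and 5.55 in WT +Fe roots. NAS1, which makes the metal chelator nicotianamine, had 11.67 and 11.50 in WT −Fe roots, against 8.96 and 9.01 in WT +Fe roots. The rises were 3.75 ± 0.135 for OPT3 and 2.60 ± 0.114 for NAS1, and no replicate of one group came near the other. The nicotianamine synthases differed among themselves, with NAS4 up by 1.68 and NAS2 by 0.65, whereas NAS3 gave −0.10 (adjusted p = 0.825). FRO3, a mitochondrial ferric reductase gene, rose by 2.28 ± 0.162. NRAMP4, which releases iron from the vacuole, rose by 0.90, while the value of its close relative NRAMP3 was 0.02 (adjusted p = 0.953). The organelle transporter gene FPN3 rose by 0.94. Not called were also FRD3 and FPN1. FRD3, the citrate exporter of the xylem, gave 0.16 (adjusted p = 0.518), and FPN1, the iron exporter of the vasculature, gave 0.00. The 1 fall, YSL3 at −0.49, was not called without either WT −Fe array or without WT +Fe replicate 1, and leaving out a uri +Fe array gave 2 called falls.

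Of 10 measured iron storage genes 6 fell, none rose and the median was −0.84. FER1 (AT5G01600), the main ferritin of roots and leaves, had 10.46 and 10.43 in WT −Fe roots, against 12.42 and 12.31 in WT +Fe roots, a fall of 1.92 ± 0.122 on the log2 scale (adjusted p = 8.94e-07). All 4 ferritin genes were lower, with FER3 at −1.02, FER4 at −0.95 and FER2 at −0.74. VTL2 (AT1G76800), a vacuolar iron importer-like gene, had 6.91 and 6.89 in WT −Fe roots, against 8.73 and 8.49 in WT +Fe roots. It fell by 1.71 ± 0.124 and its relative VTL1 by 1.28 ± 0.122. VIT1, the vacuolar iron importer of the seed, gave −0.27 (adjusted p = 0.292), and VTL3, VTL4 and VTL5 were not called either. The falls numbered 5 in each of the 4 omissions.

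Of 7 measured superoxide dismutase genes 1 fell and 2 rose. FSD1 (AT4G25100), the iron form of plastids, had 9.84 and 9.94 in WT −Fe roots, against 12.03 and 12.22 in WT +Fe roots, and fell by 2.24 ± 0.144 (adjusted p = 1e-06). The copper and zinc forms CSD1 (cytosol) and CSD2 (plastid) rose by 0.84 ± 0.114 and 0.62 ± 0.115, and CCS, the chaperone that hands copper to them, by 0.68 ± 0.114. The other iron forms FSD2 (−0.43) and FSD3 (−0.41), the copper and zinc form CSD3 (−0.41) and the manganese form MSD1 (−0.13) were not called. Of 22 measured genes of superoxide and peroxide removal 4 rose, with the glutathione reductase gene GR1 at 0.53, and 2 fell, with the catalase gene CAT3 (AT1G20620) at −0.47. The rises numbered 3, 1, 2 and 4 in the 4 omissions, and CSD1 remained in all of them. The falls numbered 1 in each, FSD1, and leaving out a uri +Fe array gave 5.

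Copper and zinc transporter genes gave 2 rises (9.52%) and 3 falls (14.3%) among 21 measured. COPT2 (AT3G46900), a copper importer of the root surface, had 10.59 and 10.49 in WT −Fe roots, against 7.69 and 7.85 in WT +Fe roots, a rise of 2.77 ± 0.189 (adjusted p = 1.57e-06). The zinc transporter family split, with ZIP9 up by 0.92, ZIP5 down by 0.95 and ZIP2 down by 0.71. HMA2, which loads zinc into the xylem, fell by 0.95 ± 0.131. The falls numbered 2, 2, 3 and 2 in the 4 omissions and 5 without either uri +Fe array.

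**Figure D3:**
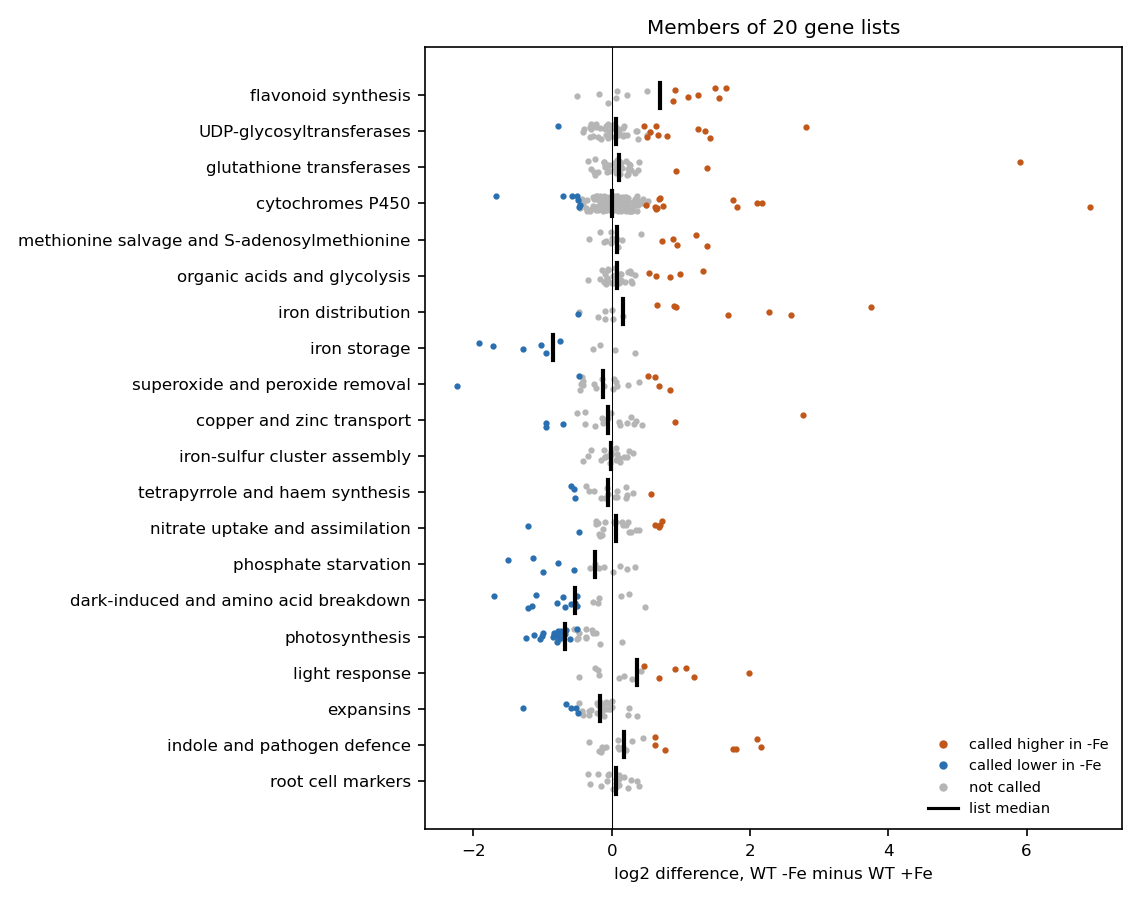
Each point is 1 measured gene of a list and the horizontal axis its log2 difference, WT −Fe minus WT +Fe, with called rises in orange, called falls in blue, genes not called in grey and the list median as a black bar. Flavonoid genes have a median of 0.70 and photosynthesis genes one of −0.68, while root cell markers and iron-sulfur cluster genes lie around 0 with no call.

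Of 14 measured flavonoid synthesis genes 7 rose, none fell and 7 were not called, 3 of the 14 differences being below 0. The list's median was 0.70, against −0.03 over all genes. CHI (AT3G55120), the chalcone isomerase, had 10.28 and 10.30 in WT −Fe roots, against 8.55 and 8.73 in WT +Fe roots. FLS1 (AT5G08640), the flavonol synthase, had 10.99 and 11.03 in WT −Fe roots, against 9.47 and 9.45 in WT +Fe roots. They rose by 1.65 ± 0.138 and 1.55 ± 0.131, and in both the lowest WT −Fe value was above the highest WT +Fe value. The hydroxylase genes F3'H and F3H rose by 1.49 and 0.88, the helper gene CHIL by 0.91 and the flavonol glucosyltransferase gene UGT78D2 by 1.25. MYB12, a flavonol-specific factor of roots, rose by 1.1 ± 0.147, whereas MYB11 (−0.19) and MYB111 (−0.05) were not called. CHS, the chalcone synthase at the entry of the pathway, gave 0.22 (adjusted p = 0.371). The anthocyanin branch gene DFR gave −0.50 (adjusted p = 0.0921) and the anthocyanin factor gene MYB75 gave 0.06. The count of 7 held in each of the 4 omissions.

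Enzymes that attach glucose to phenolics and other small molecules were also among the rises. Of 54 measured UDP-glycosyltransferase genes 10 rose and 1, UGT88A1 at −0.77, fell. UGT72E1, which glucosylates precursors of lignin, had 11.52 and 11.64 in WT −Fe roots, against 8.67 and 8.87 in WT +Fe roots, a rise of 2.81 ± 0.177. The sinapate glucosyltransferase genes UGT84A1 and UGT84A2 rose by 1.42 and 1.35. The rises of this family numbered 6, 5, 6 and 6 in the 4 omissions. Among 185 cytochromes P450 12 rose (6.49%) and 7 fell (3.78%), against 3.55% and 2.22% of all genes, with a median of 0.00. Beside CYP82C4 the rises included CYP71B5 at 2.17, CYP71A12 at 2.11 and CYP82C3 at 1.81, and CYP712A1 fell by 1.68 ± 0.136. P450 rises numbered 7, 5, 7 and 11 in the omissions and P450 falls 1, 1, 2 and 2.

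Methionine feeds nicotianamine through S-adenosylmethionine, and the by-product is recycled by the methionine salvage cycle. Of 17 measured genes of this group 5 rose and none fell. MTI1, the isomerase of the cycle, had 11.02 and 11.08 in WT −Fe roots, against 9.59 and 9.75 in WT +Fe roots. It rose by 1.38 ± 0.114, the kinase gene MTK by 1.21 ± 0.117 and the next enzyme gene DEP1 by 0.94 ± 0.124. The S-adenosylmethionine synthetase genes SAM1 and MAT3 rose by 0.89 and 0.73. The group's median was 0.08, and the rises numbered 5, 4, 5 and 5 in the omissions.

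Among 36 genes of glycolysis and organic acids 5 rose and none fell, with a median of 0.08. PFK1, a phosphofructokinase gene, had 10.78 and 10.90 in WT −Fe roots, against 9.47 and 9.56 in WT +Fe roots, a rise of 1.33 ± 0.116. The phosphoenolpyruvate carboxylase genes PPC1 and PPC3 rose by 0.99 ± 0.116 and 0.85 ± 0.121, and PPCK1, the kinase that activates this enzyme, by 0.54. The phosphoglycerate mutase gene iPGAM1 rose by 0.63. The rises numbered 3, 3, 4 and 5 in the omissions, and without either WT −Fe array iPGAM1 was among those lost. ALMT1 (AT1G08430), a malate channel that releases malate from the root tip, fell by 1.88 ± 0.125, with 5.10 and 5.14 in WT −Fe roots, against 6.94 and 7.05 in WT +Fe roots.

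**Figure D4:**
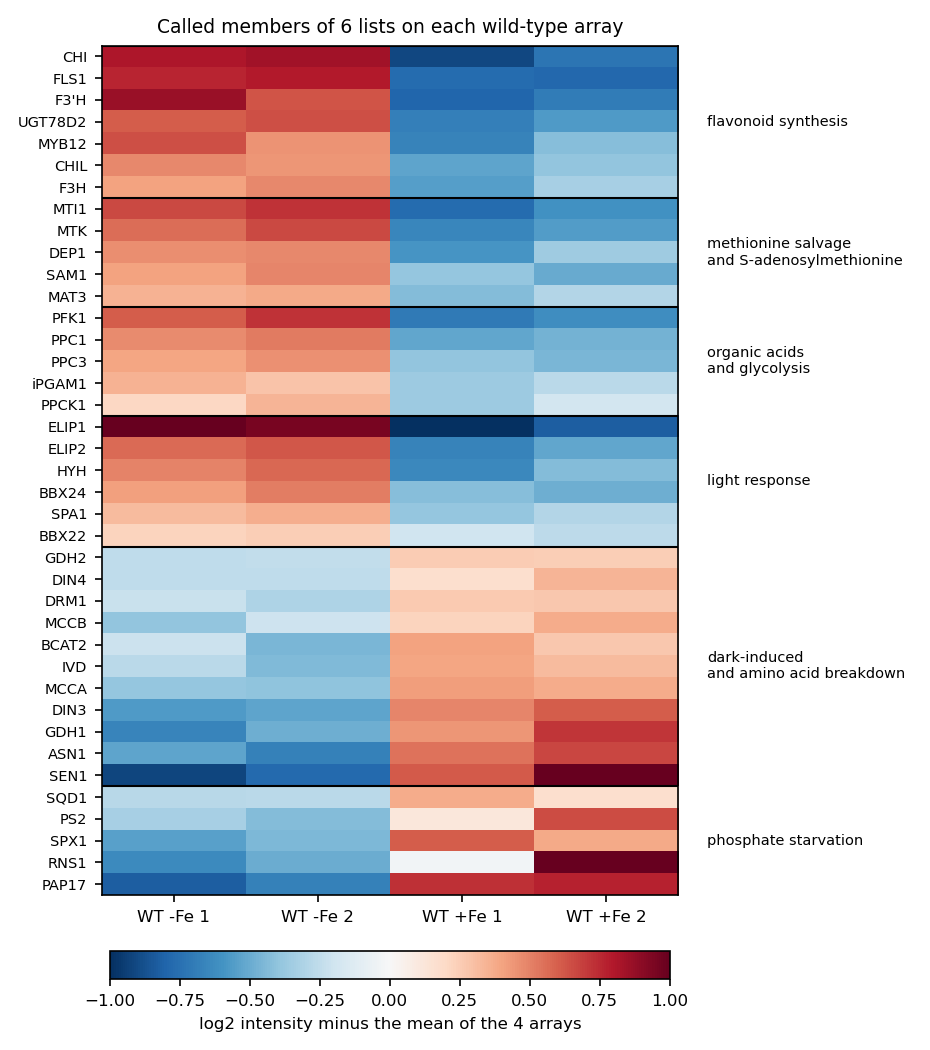
Rows are the called genes of 6 lists and columns the 4 wild-type arrays, with colour for log2 intensity minus the mean of the 4 arrays, from blue (−1) to red (1), and values beyond that range drawn at its end colours. Rows of the upper 4 lists are red in both WT −Fe columns and rows of the lower 2 lists blue there, and for RNS1 the WT +Fe columns (7.15 and 8.35) differ from each other.

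Nitrogen genes gave 4 rises and 2 falls among 25 measured. The cytosolic glutamine synthetase genes GLN1;2, GLN1;4 and GLN1;1 rose by 0.73, 0.70 and 0.63, and the nitrate transporter and sensor gene NRT1.1 by 0.69. ASN1, an asparagine synthetase gene that sugars repress and darkness induces, had 8.89 and 8.75 in WT −Fe roots, against 9.96 and 10.09 in WT +Fe roots, and fell by 1.21 ± 0.121. GLU1, a glutamate synthase gene, fell by 0.47. The rises numbered 0, 1, 3 and 3 in the omissions and the falls 1 in each.

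ASN1 belongs to a wider set of genes for darkness and amino acid breakdown that was put together after their values were seen, so its counts are a description. Of 17 such genes 11 were called lower and none higher, with a median of −0.53. SEN1 (AT4G35770), a dark-inducible and senescence-associated gene, had 6.88 and 7.02 in WT −Fe roots, against 8.41 and 8.88 in WT +Fe roots, a fall of 1.70 ± 0.146. GDH1, a glutamate dehydrogenase gene, fell by 1.15 ± 0.129 and DIN3, a subunit of the branched-chain ketoacid dehydrogenase, by 1.1 ± 0.118. Further steps of leucine breakdown were lower as well, with MCCA at −0.79, IVD at −0.71 and MCCB at −0.59. The falls numbered 7, 5, 7 and 7 in the omissions. In a list of 18 amino acid and peptide transporter genes, also put together later, 2 were called, the exporter genes UMAMIT29 at −1.53 ± 0.125 and UMAMIT20 at −1.08 ± 0.123.

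Photosynthesis genes, kept as markers of green tissue, gave 20 falls and no rise among 34, and 33 of the 34 differences were below 0, with a median of −0.68. In whole-root RNA a lower share of a cell type and less transcript per cell cannot be told apart. PSAN, a photosystem I subunit gene, had 7.27 and 7.32 in WT −Fe roots, against 8.45 and 8.63 in WT +Fe roots, and fell by 1.24 ± 0.119. PSBQ2 of photosystem II fell by 1.13, LHCB4.2 of its antenna by 1.03 and PSAL of photosystem I by 1.01. The Calvin cycle genes GAPA and FBA2 fell by 0.78 and 0.69, while RCA, which activates Rubisco, gave −0.18 (adjusted p = 0.495). PSBS, which protects photosystem II in strong light, was the exception in sign at 0.15 (adjusted p = 0.637). The summed linear intensity of the 34 genes was 7978 and 7879 in WT −Fe roots, against 11580 and 12682 in WT +Fe roots. For the 20 root cell markers the sum was 15905 and 16680 in WT −Fe roots, against 15033 and 15796 in WT +Fe roots. No photosynthesis gene was below the lower quartile in both groups. The falls numbered 15, 11, 19 and 15 in the omissions, and the part that green tissue has in them was not tested.

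Chlorophyll and haem synthesis gave 3 falls and 1 rise among 18 measured genes. PORB and CHLM, enzymes of chlorophyll synthesis, fell by 0.59 and 0.54 and HEMA1, the glutamyl-tRNA reductase gene of green tissue, by 0.54, whereas HEMA2, its counterpart of roots, rose by 0.56. Only 0, 0, 1 and 0 falls and 0, 0, 0 and 1 rises were called in the omissions, so most of these calls were lost whichever wild-type array was left out. The 22 measured genes of iron-sulfur cluster assembly gave no call and a median of −0.01, with NEET at −0.42 (adjusted p = 0.131) and SUFB at −0.34 (adjusted p = 0.16). Over all 22746 probe sets 4118 had an unadjusted p under 0.05.

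Of 14 genes that respond to light 6 rose and none fell, with a median of 0.36. ELIP1, a chlorophyll-binding protein gene induced by strong light, had 9.09 and 9.0 in WT −Fe roots, against 6.88 and 7.23 in WT +Fe roots, a rise of 1.99 ± 0.243. ELIP2 rose by 1.19, and HYH, a close relative of the light factor HY5, by 1.07. The B-box factor genes BBX24 and BBX22 rose by 0.92 and 0.47 and SPA1, a repressor of light signalling, by 0.68. HY5 itself gave 0.43 (adjusted p = 0.0987), and the photoreceptor genes PHYA, PHYB, CRY1 and CRY2 were not called. The rises numbered 5, 3, 5 and 5 in the omissions.

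Of 13 phosphate starvation genes 5 fell and none rose. PAP17, a purple acid phosphatase gene, had 7.75 and 7.90 in WT −Fe roots, against 9.31 and 9.34 in WT +Fe roots, and fell by 1.5 ± 0.131. SPX1, a phosphate sensor gene, fell by 0.99 ± 0.134, the phosphatase gene PS2 (AT1G73010) by 0.77 and the sulfolipid gene SQD1 by 0.54. RNS1, a ribonuclease gene, had 6.54 and 6.69 in WT −Fe roots, against 7.15 and 8.35 in WT +Fe roots. Its call (−1.13 ± 0.273, adjusted p = 0.0291) was lost without either WT −Fe array or without WT +Fe replicate 2. The group's median was −0.24 and its falls numbered 2, 2, 4 and 3 in the omissions.

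Of 29 measured expansin genes, which loosen the wall during growth, 5 (17.2%) fell and none rose. Of their differences 25 were below 0 with a median of −0.17, against a median of −0.03 and a lower quartile of −0.16 over all genes. EXPA1 had 6.71 and 6.45 in WT −Fe roots, against 7.84 and 7.88 in WT +Fe roots, a fall of 1.28 ± 0.128. EXPA17, EXPB3, EXPA6 and EXPA4 fell by 0.65, 0.59, 0.52 and 0.49, and 1, 1, 2 and 1 falls were called in the omissions, with EXPA1 called in each. Among 32 xyloglucan transglucosylase genes, which cut and rejoin wall polymers, 4 (12.5%) rose and 1 (3.12%), XTH9 at −0.60, fell. In this family 22 of 32 differences were below 0, but the median of −0.10 lay within the quartiles of −0.16 and 0.10 over all genes. XTH31 rose by 1.07 ± 0.111, with 12.43 and 12.51 in WT −Fe roots, against 11.43 and 11.36 in WT +Fe roots. XTH18, XTH21 and XTH17 rose by 0.63, 0.62 and 0.56, and the rises numbered 1, 2, 1 and 4 in the omissions. Among the 15 largest rises was COBL6, a COBRA-like wall protein gene, at 2.57 ± 0.135. MIOX4, which starts a route from inositol to wall sugars, was among the 15 largest falls at −1.35 ± 0.168.

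A set of genes of indole metabolism and pathogen defence, put together after their values were seen, gave 7 rises and no fall among 20. FOX1 and CYP71A12, both of indole-derived defence compounds, rose by 2.16 ± 0.158 and 2.11 ± 0.118, and CYP81F2 of indole glucosinolates by 1.75. FOX1 had 6.59 and 6.62 in WT −Fe roots, against 4.59 and 4.30 in WT +Fe roots. The WT +Fe means of FOX1, CYP71A12 and CYP71B5 lay under the lower quartile of their arrays, which leaves the sizes of their rises uncertain. RBOHD, the oxidase of the defence burst, had 10.94 and 10.83 in WT −Fe roots, against 9.20 and 8.96 in WT +Fe roots, a rise of 1.80 ± 0.122. In a set of 15 genes of rapid touch and stress responses, chosen in the same way, 5 rose and 1 fell. The zinc finger gene STZ rose by 1.77 and the factor genes ERF6 and ERF5 by 1.12 and 0.71, whereas the calmodulin-like gene TCH3 fell by 0.75. The defence rises numbered 5, 4, 4 and 5 in the omissions and the touch rises 3, 2, 2 and 3, with 3 touch rises also without either uri −Fe array.

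Phloem protein 2 (PP2) lectins, a family also picked after its values were seen, gave 5 rises and 1 fall among 25 measured genes. PP2-A8 (AT5G45070) had 10.79 and 10.94 in WT −Fe roots, against 7.15 and 7.26 in WT +Fe roots, a rise of 3.66 ± 0.116. PP2-A6, its neighbour on the chromosome, rose by 2.36, PP2-B6 by 1.99 from a WT +Fe mean under the lower quartile, PP2-B2 by 1.06 and PP2-A7 by 0.48. PP2-A1, the lectin of phloem companion cells, fell by 0.58. The rises of this family numbered 4, 4, 5 and 4 in the omissions, and the fall was lost in each. The companion cell sucrose carrier gene SUC2 gave −0.31 (adjusted p = 0.194). GRF11, a 14-3-3 protein gene, was among the 15 largest rises at 3.14 ± 0.155, with 9.71 and 9.80 in WT −Fe roots, against 6.39 and 6.84 in WT +Fe roots.

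Among transcription factor families, rises and falls were 7 and 1 of 120 MYB genes, 5 and 2 of 81 NAC genes, 7 and 3 of 61 WRKY genes and 6 and 2 of 55 ERF genes. The called shares were 6.67% for MYB, 8.64% for NAC, 16.4% for WRKY and 14.5% for ERF genes, against 5.77% of all genes. The MYB rises include MYB72 and MYB10 of the coumarin list, and beyond them MYB12 at 1.1. The MYB19 rise of 0.90 is of uncertain size, its WT +Fe mean lying under the lower quartile. NAC046 rose by 0.91 and WRKY72 by 0.77, while WRKY75, known for phosphate responses, fell by 0.77 and WRKY45 by 0.71. AT5G51190, an ERF gene, rose by 1.40 ± 0.199, and EBP, another, fell by 0.75. WRKY rises numbered 1, 3, 5 and 4 in the omissions and 12 without either uri +Fe array. NAC rises numbered 1, 1, 3 and 3, ERF rises 3, 2, 3 and 3, and MYB rises 6, 4, 5 and 6.

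The next 3 lists had few members and few calls. Among 23 genes of ethylene synthesis and signalling the synthase genes ACS11 and ACS6 rose by 0.57 and 0.53, counts of 0, 0, 0 and 1 in the omissions and of 3 without either uri +Fe array. AOX1A, the main alternative oxidase gene, rose by 0.53 among 12 genes of alternative respiration, and RIBA1 by 0.54 among 8 genes of riboflavin synthesis. The called shares of 8.7%, 8.33% and 12.5% are of 2, 1 and 1 genes, against 3.55% of all genes called higher. Neither AOX1A nor RIBA1 was called in any of the 4 omissions.

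The uri mutant served to ask which of these changes differ between genotypes. URI had log2 intensities of 8.64 and 8.60 on the WT −Fe arrays and 8.73 and 8.78 on the WT +Fe arrays. The arrays labelled uri −Fe had 8.52 and 8.62, and those labelled uri +Fe had 7.84 and 7.64. The transcript therefore does not check the label of the uri −Fe arrays. In uri 7160 genes (34.1%) were called, 3238 higher (15.4%) and 3922 lower (18.7%), and for 4441 genes (21.1%) the genotypes' responses differed.

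Of the 746 genes that rose in wild type, 288 (38.6%) were also called higher in uri, 302 were not called there and 156 (20.9%) were called lower. The 288 are 8.89% of the uri rises. Of the 467 falls, 165 (35.3%) were called lower in uri too, which is 4.21% of the uri falls, and 165 were called higher. The contrasts share no array, but they share the fit's estimate of the spread. Among the 15 largest rises and 15 largest falls named here, the responses of 24 differed between genotypes. These genes were chosen by their wild-type values, which also enter this test, so a difference is favoured and the count is a description.

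Large rises were mostly smaller on the arrays labelled uri, a direction that their choice by wild-type values favours. GSTL1 rose by 5.90 in wild type and by 2.58 in uri, and the difference of 3.32 ± 0.26 passed the test (adjusted p = 3.86e-06). OPT3 rose by 3.75 in wild type and 0.60 in uri, a difference of 3.15 ± 0.191, and NAS1 rose by 2.60 in wild type and fell by 0.49 in uri, a difference of 3.09 ± 0.162. AT1G73120 rose in both, by 3.73 and 3.00, and the difference of 0.73 ± 0.25 was not called (adjusted p = 0.058). All 6 storage genes that fell in wild type were called lower in uri as well. For FER1 the wild-type fall of 1.92 stood beside one of 1.81 in uri, with a difference of −0.11 ± 0.173 (adjusted p = 0.716), and for FSD1 the falls were 2.24 and 2.75 (adjusted p = 0.0978). CYP712A1, UMAMIT29 and AT1G52820 also fell in both, with differences between genotypes from −0.25 to −0.02 that were not called.

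In some other lists called genes went in opposite directions, and in others they mostly kept theirs. These counts are to be read against all measured members of a list in uri. Called lower there were 8 of 13 phosphate starvation, 8 of 14 flavonoid, 18 of 36 glycolysis and organic acid and 15 of 29 expansin genes. In the same order 1, 0, 6 and 2 were called higher. Of the photosynthesis genes 17 of 34 were called higher in uri and none lower. Of the 5 phosphate starvation genes that fell in wild type 4 were called lower in uri and none higher. All 11 dark-induced and amino acid breakdown genes that fell in wild type were called higher in uri. So were all 17 measured genes of this list, which was put together after values were seen. SEN1 had −1.70 in wild type and 4.1 in uri, a difference of −5.80 ± 0.206. Of the 7 flavonoid genes that rose in wild type 6 were called lower in uri, among them CHI with 1.65 in wild type and −1.36 in uri and FLS1 with 1.55 and −1.61. Of the 20 photosynthesis genes that fell in wild type 10 were called higher in uri, PSAN with −1.24 in wild type and 0.90 in uri, and for 19 the responses differed. Of the 5 genes of glycolysis and organic acids that rose in wild type, 4 fell in uri: PPC1 by 0.63, PPC3 by 0.37, PPCK1 by 1.24 and iPGAM1 by 0.98. XTH31 rose by 1.07 in wild type and fell by 2.37 in uri. The 5 expansin genes that fell in wild type were also called lower in uri, and for 4 of them the responses differed. EXPA17 fell by 0.65 in wild type and by 2.52 in uri, whereas EXPA1 had −1.28 in wild type and −1.26 in uri.

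**Figure D5:**
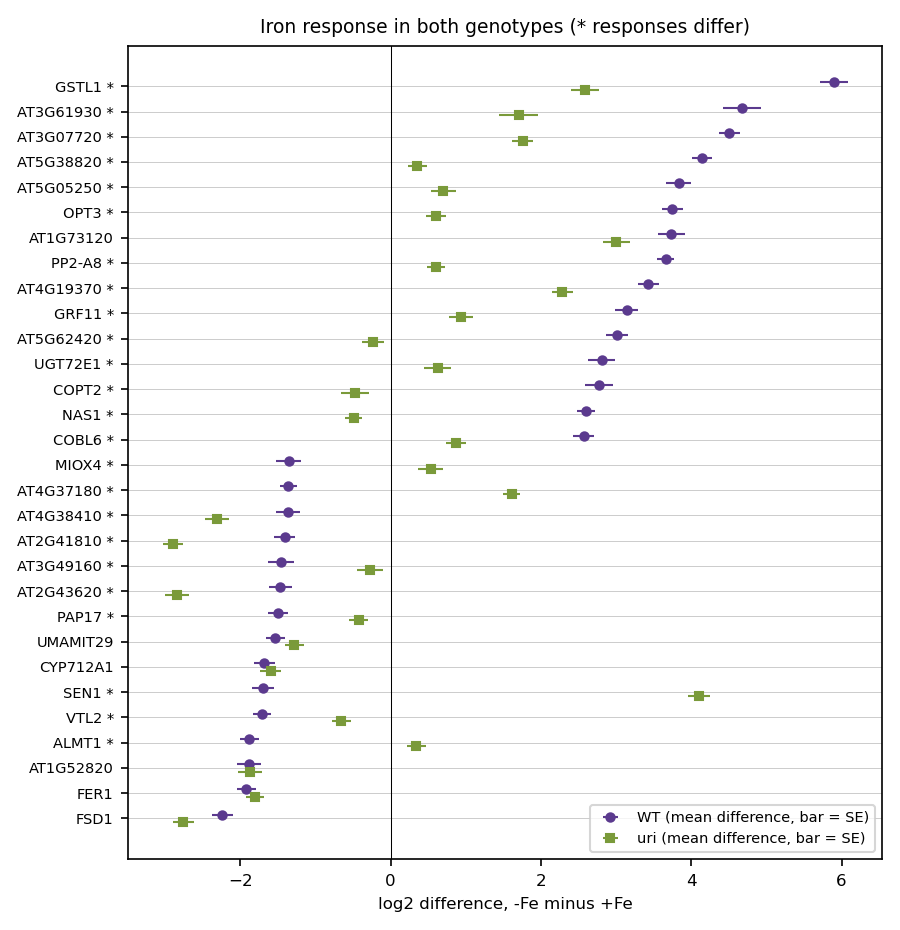
Log2 difference, −Fe minus +Fe, with its SE as a bar, for the 15 largest rises and 15 largest falls of wild type (purple circles) and for the same genes in uri (green squares), where an asterisk marks the 24 genes whose responses differ. SEN1 and AT4G37180 lie below 0 in wild type (−1.70 and −1.36) and above it in uri (4.1 and 1.61).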

How the data were processed

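Root RNA was measured on 1-colour Affymetrix arrays with 22810 probe sets. The authors deposited intensity values on a linear scale, and the submitters' processing notes name RMA without a version. The per-array tables differ from the series table by at most 5e-06. Log2 was taken here, 64 control probe sets were left out and 22746 were tested. All 8 arrays entered 1 fit with a mean per group (limma 3.58.1 in R 4.3.3, lmFit and eBayes), with Benjamini-Hochberg adjustment over all probe sets and calls at an adjusted p under 0.05. RMA borrows information across arrays and compresses differences of dim probe sets. A mean is described as below the lower quartile where it lies under that of its group's arrays.

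Of the tested probe sets 21180 name 1 gene, 1039 several and 527 none. The brightest stands for a gene, which gave 21019 genes, of which 20798 matched the RefSeq table (TAIR10.1). Probe sets of paralogs may share signal. SE are moderated standard errors, and the number of arrays limits the precision. The 2 replicates of a group are biological per the series' design text, but no source says how many plants each holds.

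The genes and lists were chosen with earlier results of these data known. Genes named are, outside the classical lists, the 15 largest rises and 15 largest falls among called genes whose groups do not overlap. Named too are up to 4 genes per list with the largest changes and 4 treatment checks. Other list members were named after their values were seen, as were the lists of darkness, amino acid transport, defence and touch responses, the phloem lectins, the organelle transcripts and the annotation words. Alternatives were other normalizations, filters, an offset of 16, the wild-type arrays alone, a replicate block and the omission of each array. Probe, promoter and protein sequences were not used here.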

Additional observations from a re-analysis of the deposited data

Results flagged for a closer look

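Among the 15 largest rises, the 15 largest falls and the treatment checks, the response to iron deficiency differed between genotypes by the test of the difference itself (wild type minus uri, on the log2 scale) for 27 genes, where 21.1% of all genes were called. The URI level of the arrays labelled uri −Fe does not check their label, as given above. These differences are values only, and their cause was not tested. Most of the genes were chosen by their wild-type values, which also enter the test, so 27 and 21.1% are not a like comparison.

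Among genes that rose in wild type, the difference was 3.32 for GSTL1, 2.97 for AT3G61930, 2.75 for AT3G07720, 3.79 for AT5G38820 and 3.13 for AT5G05250. It was 3.15 for OPT3, 3.05 for PP2-A8, 1.14 for AT4G19370, 2.21 for GRF11 and 3.25 for AT5G62420. It was 2.18 for UGT72E1, 3.24 for COPT2, 3.09 for NAS1 and 1.69 for COBL6. Among the treatment checks it was 2.09 for IRT1, 3.57 for bHLH39 and 2.61 for F6'H1. All 17 rises were larger in wild type, a sign that the choice of most of these genes by large wild-type rises favours.

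Among genes that fell in wild type, the difference was −2.22 for ALMT1, −1.05 for VTL2, −5.80 for SEN1, −1.07 for PAP17, −1.18 for AT3G49160, −2.98 for AT4G37180 and −1.89 for MIOX4. In these 7 genes wild type fell further or uri rose. It was 1.37 for AT2G43620, 1.48 for AT2G41810 and 0.94 for AT4G38410, which fell further in uri.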

How the results depend on the processing

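No called named gene changed sign under any alternative that was run. The wild-type groups of these genes do not overlap, so leaving out 1 array could not turn a sign. Leaving out a uri array does not alter a wild-type difference, only the estimate of the spread. Of the named genes not called AP1 changed sign, at −0.04 without WT +Fe replicate 2 against 0.16 with all arrays. The numbers of called rises and falls within a list did change, which counts members that cross the threshold and not differences that turn. Superoxide and peroxide removal had 4 rises and 2 falls with all arrays and 4 and 5 without either uri +Fe array. Nitrate genes had 4 and 2 with all arrays and 0 and 1 without WT −Fe replicate 1, and tetrapyrrole genes had 1 and 3 with all arrays and 1 and 0 without WT +Fe replicate 2. The counts of calls changed when single arrays were left out. For a wild-type array, a drop in calls cannot be told apart from the lower precision of a group left with 1 array. Over the 8 omissions of 1 array the called probe sets ranged from 435 to 1729, the rises from 324 to 1021 and the falls from 111 to 708, against 1285, 798 and 487 with all arrays. Without WT −Fe replicate 1 there were 494 calls (357 higher, 137 lower), without WT −Fe replicate 2 435 (324 and 111), without WT +Fe replicate 1 647 (409 and 238) and without WT +Fe replicate 2 821 (612 and 209). Calls within the gene lists numbered 211 with all arrays and 111 to 248 over the omissions, with 123 and 111 without WT −Fe replicates 1 and 2. The lone array left in a group is then assumed to vary like the other groups. Of 135 called named genes 100 were called in all 8 omissions. The other alternatives gave 1164 to 1696 calls. Deviations of same-numbered arrays correlated from −0.223 to 0.155, with 0.139 between the WT groups and 0.155 between the uri groups. With 2 arrays a group these values cannot decide whether the replicate numbers pair the samples. The fit with a replicate block gave 1164 calls.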

Other observations

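Other gene groups, taken by words in the annotation after values were seen, are given here as a description. Of 103 genes annotated with a DC1 or CHP-rich domain, a zinc-binding fold, 19 (18.4%) were called higher and none lower. Of 805 genes whose annotation names a protein kinase 54 (6.71%) were called higher and 7 (0.870%) lower, against 3.55% and 2.22% of all genes. Of 333 genes whose annotation names ribosomal proteins or ribosome constituents, also by similarity, none was called higher. Called lower were 12 (3.60%), against 2.22% of all genes. Their median log2 difference was −0.19, against −0.03 over all genes. Among 72 transcripts of the plastid genome 4 (5.56%) were called lower, led by ATCG00020 at −0.74. Their median was −0.20, against −0.03 over all genes, and 60 were below 0. None of 49 mitochondrial transcripts was called, at a median of −0.04. The plastid falls numbered 0, 0, 0 and 2 without WT −Fe replicates 1 and 2 and WT +Fe replicates 1 and 2.

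Some rises lay side by side on the chromosome. Of the 180 genes that were at least 2-fold higher, 12 (6.67%) had an adjacent gene that was too, against 286 of 19970 measured genes (1.43%) with such a neighbour. FOX1 (2.16) and AT1G26390 (1.85) are such a pair, as are PP2-A8 (3.66) and PP2-A6 (2.36). Neighbours of 1 family may share probe signal. None of the 54 genes that were at least 2-fold lower had an adjacent gene in that set.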
